A study of Mus musculus with 24 samples.

Results

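The effect of insulin-like growth factor 1 (IGF1) on gene expression was examined in mouse hearts 24 h after the end of a coronary occlusion. The comparison rests on the 4 arrays titled IGF1 and the 4 titled vehicle at 24 h, 8 of the 24 arrays of the series, and on all 15875 genes measured. IGF1 mice were male C57BL6/J mice given 40 ng/g of the recombinant hormone under the skin when the vessel was reopened, followed by 1 µg/g per day from an osmotic pump meant to last 3 days. Vehicle mice were of the same strain and sex and received the carrier, buffered saline with bovine serum albumin. In both groups the left anterior descending artery had been closed for 45 min, per the sample labels. The series design text instead speaks of sham-operated controls with vehicle pumps. The sample labels were followed here. RNA came from the anterior wall's area at risk, so each array reports a mixture of muscle, vessel, stroma and invading blood cells. In such bulk tissue, fewer cells of a type and less RNA per cell cannot be told apart. The labels name no animals, so p-values reflect only the variation among these samples, which may in part be technical.

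IGF1 binds a receptor tyrosine kinase that acts through PI3K and AKT and through the ERK cascade. AKT phosphorylation keeps FOXO transcription factors out of the nucleus and activates mTORC1, and the pathway is known for supporting growth and survival of heart muscle. Adult cardiomyocytes burn mainly fatty acids under the control of PPAR, PGC-1 and ERR factors. Reperfused infarcts lose muscle and are entered first by neutrophils, then by monocytes and later by lymphocytes.

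Levels are log2 fluorescence minus the array's own 75th percentile, and differences are IGF1 minus vehicle on that scale, with the standard error (SE) of the fit. Spots well above background made up 52.8 to 59.1% of each 24 h array, and Pearson's r between arrays of the same treatment was 0.984 to 0.992 over genes, which are not independent replicates. The label heart was borne out by very bright cardiomyocyte markers: myoglobin (Mb), the oxygen store of muscle, averaged 8.79 ± 0.083 with IGF1 and 8.35 ± 0.16 with vehicle (SD, n = 4 each). At 24 h each of 4 slides carried 1 IGF1 and 1 vehicle array, and the replicate number equals the slide number, so differences within a slide can be read from arrays of the same number.

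IGF1 was accompanied by broad changes. With limma and Benjamini-Hochberg adjustment over all genes at a threshold of 0.05, 2542 genes (16.0%) were called, 1390 of them higher (8.76%) and 1152 lower (7.26%). The median difference over all genes was 0.0066. Most changes were moderate: 173 genes rose and 167 fell more than 2-fold, and 12 rose and 4 fell more than 4-fold. The IGF1 and vehicle arrays did not overlap for 1601 genes that were higher (10.1%) and 1319 that were lower (8.31%). Each of the 8 arrays was also left out in turn, and 998 calls (6.29%), 505 higher and 493 lower, were kept in all 8 of these fits. The number called was 1203 without IGF1 array 1 and 1319 without vehicle array 2, and 947 with the 24 h arrays alone. Of the calls, 2282 (89.8%) had the same sign on all 4 slides, as had 34.6% of all genes. The fitted difference is the mean of the 4 within-slide differences, so a larger share among the calls is in part built in. With the slide as a block 3436 genes were called.

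**Figure D1:**
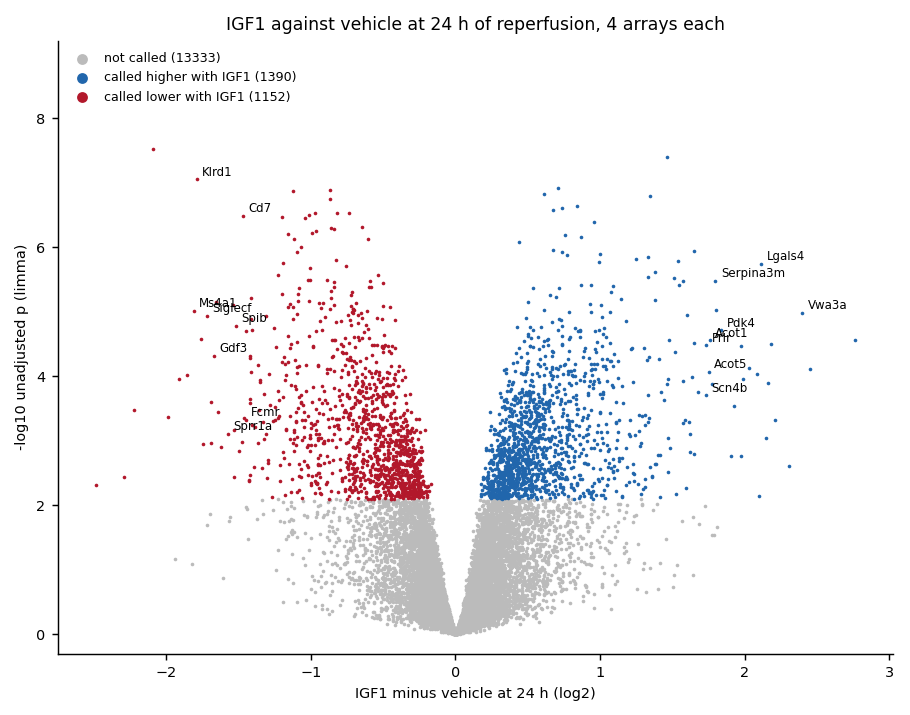
Log2 difference between IGF1 and vehicle at 24 h for each gene (x axis) against -log10 of the unadjusted limma p (y axis). Blue points are the 1390 genes called higher with IGF1, red points the 1152 called lower and grey points the rest, and the named genes are among those with the largest differences of the calls kept in all leave-one-out fits, leaving out provisional symbols and genes above background on fewer than 3 arrays of either group. Both arms are populated, with more genes beyond a difference of 2 on the higher side.

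The genes that rose most included enzymes and regulators of fuel use. Pdk4, a kinase that shuts pyruvate out of the mitochondrial citrate cycle, read 6.26, 6.11, 4.96 and 6.05 with IGF1, against 3.86, 3.67, 4.86 and 3.64 with vehicle (log2 difference 1.84 ± 0.33, adjusted p = 0.00198). Its IGF1 array 3 lay only just above vehicle array 3. The acyl-CoA thioesterases Acot1 and Acot5, which release free fatty acids from coenzyme A, differed by 1.76 ± 0.33 and 1.75 ± 0.36, although a second probe of Acot5 differed by only 0.05. Fbp2, the muscle form of fructose bisphosphatase, read 0.88, 0.18, -0.23 and 0.054 with IGF1, against -1.57, -1.91, -0.80 and -1.17 with vehicle (log2 difference 1.59 ± 0.38, adjusted p = 0.00938), with no overlap. Acot1 lost significance with the 24 h arrays alone.

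Other large rises were of genes with diverse roles. Vwa3a, a protein with a von Willebrand factor A domain, read -0.039, -0.43, -0.69 and -0.30 with IGF1, against -2.37, -3.83, -2.41 and -2.44 with vehicle (log2 difference 2.40 ± 0.41, adjusted p = 0.00146), a 5.27-fold difference and the largest of the rule's genes above background in both groups. Lgals4, the sugar-binding lectin galectin-4, read 2.99, 2.53, 1.22 and 1.77 with IGF1, against 0.052, -0.34, 0.031 and 0.31 with vehicle (log2 difference 2.12 ± 0.32, adjusted p = 0.000641). Prlr, the prolactin receptor, rose by 1.74 ± 0.33, Gbp6, an interferon-inducible GTPase, by 1.68 ± 0.37, and Dpyd, which starts pyrimidine breakdown, by 1.58 ± 0.33. Tmem82, a membrane protein, differed by 1.60 ± 0.28, and Chrna2, a nicotinic acetylcholine receptor subunit, by 1.57 ± 0.25. None of these groups overlapped. The call was lost for Dpyd with the 24 h arrays alone.

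For 6 further genes only a bound can be given, because they were above background on 4 of 4 IGF1 arrays and 0 of 4 vehicle arrays. A bound compares the IGF1 mean with the dimmest signal that still counted as above background on each vehicle array. Ubxn10, a ubiquitin adaptor found at cilia, was at least 2.11-fold higher (adjusted p = 0.00231), and its IGF1 arrays read -2.30, -2.81, -3.68 and -3.90. Sfrp5, a secreted Wnt inhibitor, was at least 2.05-fold higher (adjusted p = 0.0464) and Serpina3c, a serine protease inhibitor, at least 1.72-fold higher (adjusted p = 0.00476). The bounds of Usp43 and Cyp2b10, a cytochrome P450 known from liver, were 1.6-fold and 1.58-fold. For Sfrp5 the call did not hold without IGF1 arrays 1, 2 or 3 or vehicle arrays 2 or 3, with the 24 h arrays alone, with array weights, with dim probes kept in or with normexp background correction. The threshold was missed by Serpina3c with normexp background correction. Significance ended for Usp43 without IGF1 arrays 1 or 2 or vehicle arrays 2 or 3, with array weights, with trend and robust settings, with dim probes kept in or with normexp background correction. Cyp2b10 missed the threshold without IGF1 arrays 1, 2 or 3 or vehicle arrays 1, 2, 3 or 4, with array weights, with dim probes kept in or with normexp background correction.

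The genes that fell most included many known from lymphocytes and other leukocytes. Ms4a1, which encodes the B cell antigen CD20, read -3.45, -4.26, -3.25 and -3.99 with IGF1, against -1.57, -1.87, -2.27 and -2.01 with vehicle (log2 difference -1.81 ± 0.31, adjusted p = 0.00142) and was above background on 3 of 4 IGF1 arrays. Klrd1, the CD94 subunit of natural killer receptors, read -3.08, -2.95, -2.60 and -3.01 with IGF1, against -1.25, -0.80, -1.21 and -1.22 with vehicle (log2 difference -1.79 ± 0.22, adjusted p = 0.000299). Every IGF1 array lay more than 1 log2 unit below every vehicle array for this gene. Siglecf, a sialic acid receptor of eosinophils, differed by -1.72 ± 0.30, Cd7, a T and natural killer cell antigen, by -1.47 ± 0.20, and Cxcr6, a chemokine receptor of activated T cells, by -1.35 ± 0.28. The fall of Ciita, which switches on class II genes, was -1.45 ± 0.26. Kcnn4, a calcium-activated potassium channel of leukocytes, differed by -1.31 ± 0.23 and Ly6d by -1.41 ± 0.25. Among the other large falls, Sprr1a, a cornified-envelope protein that stressed heart muscle also makes, read 2.68, 1.34, 2.46 and 2.22 with IGF1, against 3.34, 4.08, 3.66 and 3.92 with vehicle (log2 difference -1.58 ± 0.40, adjusted p = 0.0124). Gdf3, a TGF-beta family ligand, differed by -1.67 ± 0.33, Aldh1a3, which makes retinoic acid, by -1.28 ± 0.29, and the endonuclease Ankle1 by -1.32 ± 0.29. Ankle1 dropped out of the calls with the 24 h arrays alone or with normexp background correction.

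**Figure D2:**
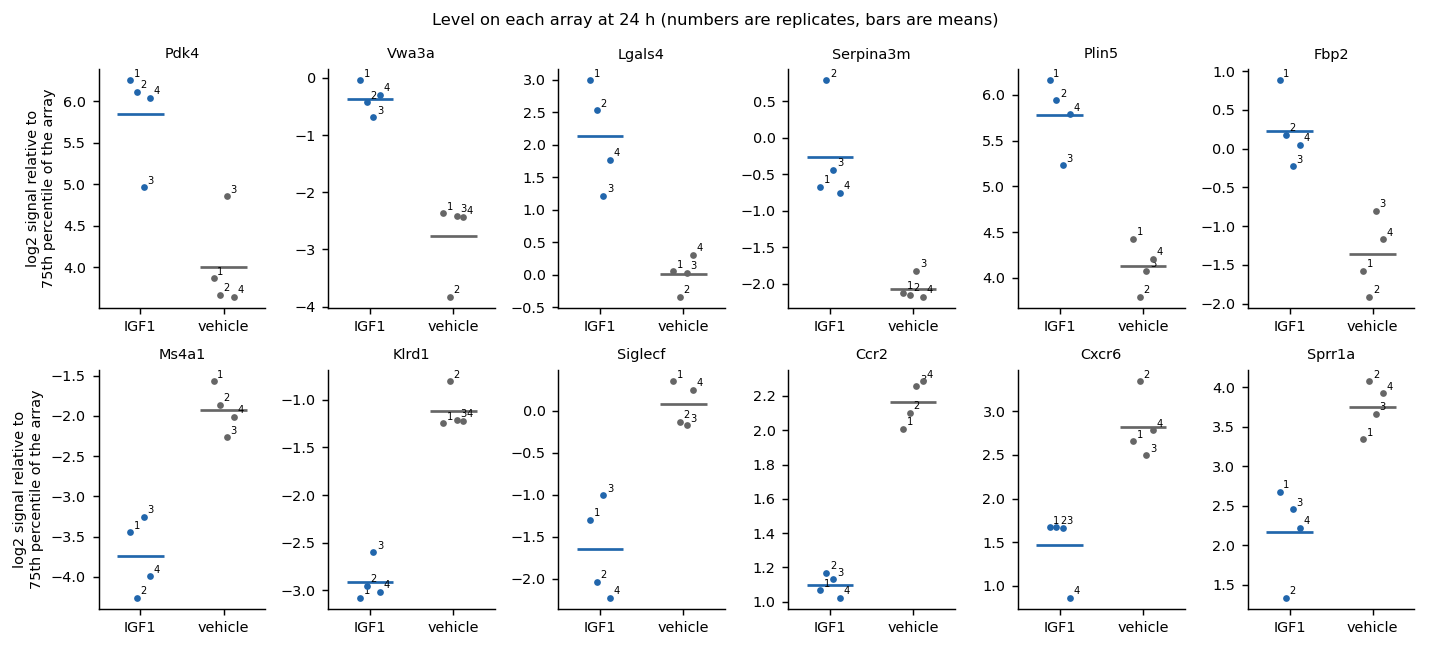
Level of 6 genes with large rises (top row) and 6 with large falls (bottom row) on each array, in log2 units after scaling to the 75th percentile (y axis), with IGF1 left and vehicle right in each panel. Points are single arrays numbered by replicate, the bars are group means, and the 2 groups overlap in none of the 12 panels.

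The ketone body and branched-chain amino acid list moved furthest among the fuel lists. Of its 25 measured genes 16 rose and 0 fell, with a median of 0.52, and 5 calls were kept in all leave-one-out fits. Branched-chain amino acids are broken down in mitochondria by Bckdha, a subunit of the rate-limiting dehydrogenase, by Ivd in the leucine branch, and by Aldh6a1 and Mmut in the valine branch. Aldh6a1 read 4.27, 3.58, 3.55 and 3.65 with IGF1, against 2.92, 2.64, 2.63 and 2.90 with vehicle (log2 difference 0.99 ± 0.18, adjusted p = 0.00198), with no overlap between the groups. Bckdha differed by 0.78 ± 0.16, Ivd by 0.67 ± 0.14 and Mmut by 0.61 ± 0.14. The lowest member was Bcat1, the cytosolic transaminase, at -0.45, adjusted p = 0.0745, which did not pass. Rises numbered 5 with the 24 h arrays alone, 6 without IGF1 array 1 or vehicle array 3 and 7 without vehicle array 2. A call was not kept for Mmut with the 24 h arrays alone.

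Regulators of that programme rose with it in part. Of 27 PPAR, PGC-1 and ERR regulators 10 rose and 0 fell (median 0.34, 4 kept in all leave-one-out fits). Klf15, a factor that drives amino acid and lipid use in the fasted state, read 2.16, 1.64, 1.43 and 1.96 with IGF1, against 0.94, 0.63, 0.60 and 0.94 with vehicle (log2 difference 1.02 ± 0.22, adjusted p = 0.00579). The coactivator PGC-1beta (Ppargc1b) differed by 0.68 ± 0.16, the mitochondrial deacetylase Sirt3 by 0.57 ± 0.14 and Pparg, the fat-cell PPAR, by 0.47 ± 0.12. Nrf1, a factor for nuclear genes of the respiratory chain, was the lowest at -0.15, adjusted p = 0.247. Higher genes numbered 3 with the 24 h arrays alone, 4 without IGF1 array 1 or vehicle array 2, 5 without vehicle array 3, 6 without vehicle array 1 or with dim probes kept in and 17 with slide as a block. The test was no longer passed by Sirt3 with the 24 h arrays alone. Pparg lost significance with the 24 h arrays alone or with array weights.

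Genes of glucose handling rose as well, among them muscle isoforms. Of 33 genes of glucose transport, glycolysis and glycogen, 11 rose and 0 fell (median 0.21, 5 kept in all leave-one-out fits). Pygm, muscle glycogen phosphorylase, read 5.5, 4.89, 4.89 and 4.87 with IGF1, against 4.17, 4.15, 4.02 and 4.52 with vehicle (log2 difference 0.82 ± 0.16, adjusted p = 0.00348). Pfkm, muscle phosphofructokinase, differed by 0.71 ± 0.14, Pfkfb1, which sets the level of its activator, by 1.0 ± 0.21, and Ldhb, the heart lactate dehydrogenase subunit, by 0.61 ± 0.13. The lactate exporter Slc16a3 was lowest, at -0.32, adjusted p = 0.178. The count of rises was 3 with the 24 h arrays alone, 5 without IGF1 array 1 or vehicle array 3 and 7 without vehicle array 2. Of 19 energy shuttle genes 6 rose and 2 fell. Rises in that list numbered 2 with the 24 h arrays alone and 3 without IGF1 array 1 or vehicle arrays 2 or 3 or with dim probes kept in, and falls 0 without IGF1 array 1 or vehicle arrays 1 or 2, with the 24 h arrays alone or with dim probes kept in and 1 without IGF1 arrays 3 or 4 or vehicle array 4, with the mean of probes or with normexp background correction. The 3 rises kept in all leave-one-out fits were those of Crat (0.79 ± 0.15), which moves acetyl groups to carnitine, and of the carnitine carriers Slc25a20 (0.77 ± 0.19) and Slc22a5 (0.48 ± 0.12). Gatm, which makes the creatine precursor, differed by -0.64 ± 0.19. The call was lost for Pfkm and Pfkfb1 with the 24 h arrays alone. For Slc22a5 the call did not hold with the 24 h arrays alone or with array weights. The threshold was missed by Gatm without IGF1 arrays 1 or 4 or vehicle arrays 1 or 2, with the 24 h arrays alone, with dim probes kept in or with normexp background correction.

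Genes that fill and empty lipid droplets rose. Of 33 genes of fatty acid and triglyceride synthesis and storage, 12 rose and 1 fell, with a median of 0.32, and 11 of the rises were kept in all leave-one-out fits. Plin5, a droplet coat protein that ties droplets to mitochondria, read 6.16, 5.94, 5.23 and 5.79 with IGF1, against 4.43, 3.79, 4.08 and 4.21 with vehicle (log2 difference 1.65 ± 0.24, adjusted p = 0.000526). The lowest IGF1 array lay well above the highest vehicle array. Plin4, another coat protein, rose by 1.0 ± 0.15. The lipases that empty droplets followed, with Pnpla2 (adipose triglyceride lipase) at 0.93 ± 0.16, Lipe (hormone-sensitive lipase) at 1.01 ± 0.17 and Mgll (monoglyceride lipase) at 0.73 ± 0.13. The only member that fell was the desaturase Scd2 (-0.43 ± 0.13). Significance ended for Scd2 without IGF1 arrays 1, 2 or 4 or vehicle arrays 1, 2 or 4, with the 24 h arrays alone, with array weights or with dim probes kept in.

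Some of these genes are also fat-cell genes. The adipocyte list holds 20 markers, but Adipoq, Plin1, Pck1, Ucp1, Tshr and Acvr1c were not among the genes tested. Of 14 measured adipocyte markers 7 rose and 0 fell (median 0.49), and all 7 were kept in the leave-one-out fits, among them Thrsp (1.34 ± 0.17), a lipogenic regulator, Aqp7 (1.10 ± 0.21), a glycerol channel, Dgat2 (1.07 ± 0.21), the last enzyme of triglyceride synthesis, and Cidea (0.80 ± 0.16). Cfd (adipsin), a marker secreted by fat cells, read -5.43, -4.40, -2.54 and -2.68 with IGF1, against -2.65, -3.53, -4.49 and -0.95 with vehicle (-0.86, adjusted p = 0.639), with overlapping groups. Differences were positive for 9 of the 14 markers and negative for 5. The mean level over all measured adipocyte markers was -1.08 to -0.82 with IGF1, against -1.77 to -0.60 with vehicle, and the part of fat cells in the lipid result was not tested. Cholesterol synthesis genes went the other way: 5 of 22 genes fell and 0 rose (median -0.15). The enzymes Cyp51 and Sqle differed by -0.50 ± 0.11 and -0.54 ± 0.13. The number that fell was 1 with the 24 h arrays alone, 2 without vehicle array 2 and 3 without IGF1 array 1 or vehicle arrays 1 or 4. Cidea, Cyp51 and Sqle missed the threshold with the 24 h arrays alone.

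Genes of muscle breakdown, which FOXO factors and glucocorticoids are known to switch on, were higher in part. Of 32 genes of muscle protein breakdown and autophagy 10 rose and 0 fell (median 0.15, 8 kept in all leave-one-out fits). Depp1, a FOXO target that fasting and progesterone induce, read 2.69, 3.29, 2.30 and 2.98 with IGF1, against 1.78, 1.17, 1.90 and 1.10 with vehicle (log2 difference 1.33 ± 0.21, adjusted p = 0.000896). Fbxo32, the ubiquitin ligase atrogin-1, read 3.05, 3.18, 2.34 and 2.23 with IGF1, against 1.98, 1.14, 1.28 and 1.89 with vehicle (log2 difference 1.13 ± 0.24, adjusted p = 0.00429), with no overlap. Map1lc3a, an LC3 protein of the autophagosome membrane, differed by 0.49 ± 0.11 and the ligase subunit Fbxo21 by 0.39 ± 0.091. The number that rose was 2 with the 24 h arrays alone. Of 21 glucocorticoid-induced genes 6 rose and 0 fell (median 0.37), with Sgk1, a kinase of the AKT family, at 0.79 ± 0.19 and Klf9 at 0.70 ± 0.14. The lowest member, Tat, a liver enzyme, did not pass. With limma, proteasome subunits showed no call in either direction over 25 genes, 0 of which had an unadjusted p below 0.05, the widest being Psmd12 at 0.14, adjusted p = 0.189 and Psma5 at -0.13, adjusted p = 0.274. Fbxo32, Map1lc3a, Fbxo21 and Sgk1 dropped out of the calls with the 24 h arrays alone.

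Genes of mitochondrial dynamics and of antioxidant defence rose in part, while few genes of the mitochondrial ribosome and import did. Of 24 genes of mitochondrial dynamics and mitophagy 12 rose and 0 fell (median 0.32, 3 kept in all leave-one-out fits). Pink1, the kinase that marks damaged mitochondria, read 5.78, 5.27, 5.33 and 5.44 with IGF1, against 4.77, 4.59, 4.85 and 4.94 with vehicle (log2 difference 0.67 ± 0.12, adjusted p = 0.00169). Bnip3, a mitophagy receptor, differed by 0.93 ± 0.18 and Opa1, which fuses inner membranes, by 0.52 ± 0.12. Rises numbered 2 with the 24 h arrays alone, 3 without IGF1 array 1, 6 without vehicle array 3 and 7 without vehicle array 2. Of 31 mitochondrial ribosome and import genes 2 rose and 0 fell (median 0.14), so that 6.45% were called, against 16.0% of all genes. Rises in that list ranged from 0 (without IGF1 array 1 or vehicle arrays 2, 3 or 4, with the 24 h arrays alone or with dim probes kept in) to 4 (without vehicle array 1). A call was not kept for Bnip3 and Opa1 with the 24 h arrays alone.

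Of 36 antioxidant and NRF2-controlled genes 12 rose and 1 fell (median 0.22, 9 rises kept in all leave-one-out fits). Nqo1, a quinone reductase, read 1.74, 1.57, 1.13 and 0.71 with IGF1, against 0.42, -0.059, 0.22 and 0.39 with vehicle (log2 difference 1.05 ± 0.21, adjusted p = 0.00321), with no overlap. The glutathione transferases Gstm1, Gstm2 and Mgst1 differed by 0.67 ± 0.13, 0.57 ± 0.10 and 1.02 ± 0.20, catalase (Cat) by 0.67 ± 0.14 and the aldehyde oxidase Aox1 by 1.09 ± 0.23. Hmox1, heme oxygenase 1, which macrophages also make, went the other way and read 4.46, 4.98, 5.08 and 4.84 with IGF1, against 5.71, 5.64, 5.63 and 5.46 with vehicle (log2 difference -0.77 ± 0.18, adjusted p = 0.00811). Higher genes numbered 5 with the 24 h arrays alone. The test was no longer passed by Gstm1 and Mgst1 with the 24 h arrays alone.

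**Figure D3:**
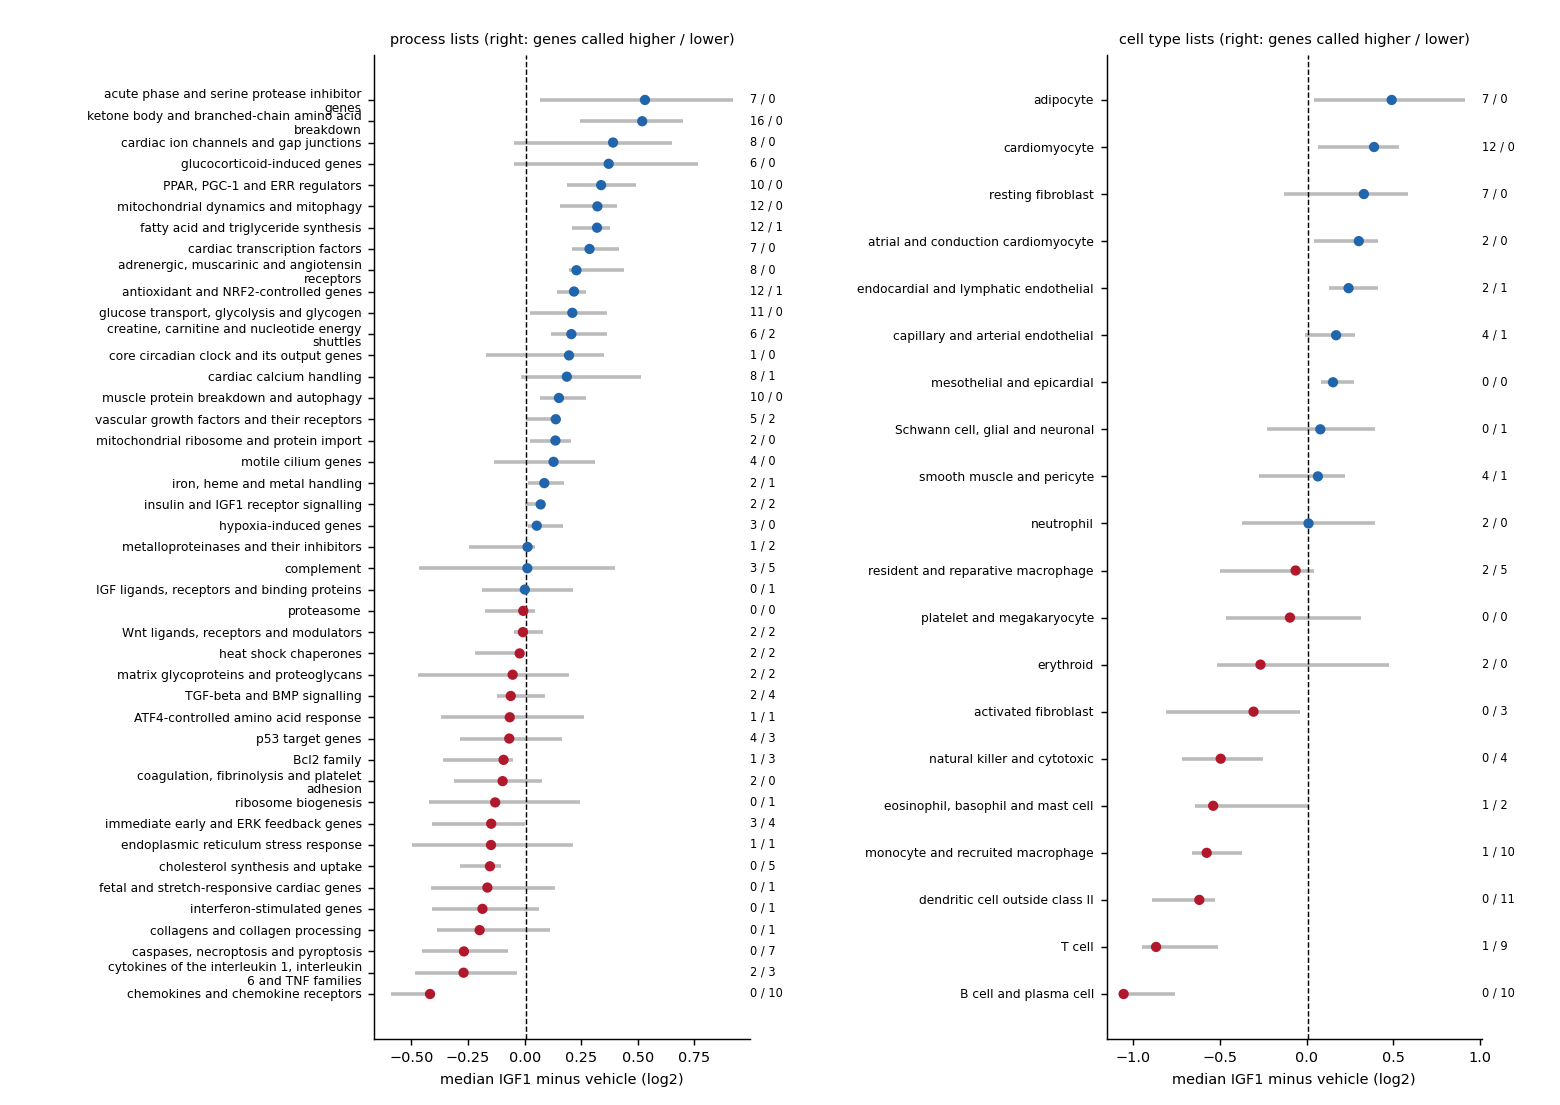
Median log2 difference between IGF1 and vehicle for each of 63 gene lists (points, x axis), with a bar from the lowest to the highest of the 4 within-slide medians, sorted by median, for process lists (left) and cell type lists (right). A list's median can lie outside its bar, since the middle gene differs between slides. The dashed line is the median of all genes, and the numbers on the right of each panel count genes called higher and lower. Ketone body and acute phase genes are near the top and B cell genes are at the bottom, at -1.06.

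Genes of the contracting heart cell were higher. Of 24 cardiomyocyte markers 12 rose and 0 fell (median 0.39, 4 kept in all leave-one-out fits). Cmya5, a large sarcomere-associated protein, read 4.88, 4.08, 4.14 and 4.02 with IGF1, against 3.03, 2.86, 3.0 and 3.75 with vehicle (log2 difference 1.12 ± 0.22, adjusted p = 0.00329). Myoz2, which anchors calcineurin at the Z disc, differed by 0.74 ± 0.14, Myom1, of the M band, by 0.46 ± 0.10 and Mb by 0.45 ± 0.10. Cardiac actin (Actc1) did not pass and read 8.47, 8.20, 8.30 and 8.39 with IGF1, against 8.46, 8.63, 8.17 and 8.63 with vehicle (-0.13, adjusted p = 0.448), with overlapping groups. The mean level over the marker list was 6.77 to 7.16 with IGF1, against 6.29 to 6.71 with vehicle. The count of rises was 4 without IGF1 array 1, 5 without vehicle array 2 or with the 24 h arrays alone and 7 without vehicle array 3, and the part of surviving muscle in the rises of fuel genes was not tested. Myom1 lost significance with the 24 h arrays alone.

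Genes of calcium handling and of ion channels rose in part. Of 27 calcium handling genes 8 rose and 1 fell (median 0.19). Atp2a2, the pump that refills the sarcoplasmic reticulum, read 7.48, 7.05, 7.04 and 7.15 with IGF1, against 6.34, 6.23, 6.27 and 6.76 with vehicle (log2 difference 0.78 ± 0.16, adjusted p = 0.00401). Cacna1c, the L-type channel pore, differed by 0.92 ± 0.22, the calcium sensor S100a1 by 0.59 ± 0.11 and the kinase Camk2b by 0.48 ± 0.10, while a second Camk2b probe gave -0.05. The number that rose was 4 without IGF1 array 1 or vehicle array 2 and 5 with the 24 h arrays alone. Of 31 ion channel and gap junction genes 8 rose and 0 fell (median 0.39). Scn4b, an auxiliary sodium channel subunit, read 0.98, -0.27, -0.67 and -1.01 with IGF1, against -2.33, -2.01, -1.98 and -1.57 with vehicle (log2 difference 1.73 ± 0.38, adjusted p = 0.0059) and Kcnip2, the partner of the transient outward potassium channel, -0.77, -1.48, -1.89 and -2.01 with IGF1, against -2.61, -3.01, -2.96 and -2.74 with vehicle (log2 difference 1.29 ± 0.31, adjusted p = 0.00877). Neither gene's groups overlapped. The rising number of channel genes was 2 without IGF1 array 1 or vehicle array 3 or with the 24 h arrays alone, 3 without vehicle array 2 and 13 with slide as a block. The call was lost for Cacna1c with the 24 h arrays alone or with the mean of probes. For Camk2b the call did not hold with the mean of probes.

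Receptors and transcription factors of the heart rose in part as well. Of 27 adrenergic, muscarinic and angiotensin receptor genes and their effectors 8 rose and 0 fell (median 0.23). The natriuretic peptide receptor Npr2 differed by 0.49 ± 0.10, adenylyl cyclase 6 (Adcy6) by 0.53 ± 0.14 and the stimulatory G protein gene Gnas by 0.34 ± 0.085, whose 5 probes ranged from -0.23 to 0.38. Rises numbered 3 with the 24 h arrays alone, 4 without IGF1 array 1 and 5 without vehicle array 2. Of 21 cardiac transcription factors 7 rose and 0 fell (median 0.29), led by Tbx3 (0.74 ± 0.14), a conduction system factor, Mef2d (0.39 ± 0.094) and the ventricular factor Irx4 (0.87 ± 0.27). That number was 2 without IGF1 array 1 and 4 without vehicle arrays 2 or 3 or with dim probes kept in. Fetal and stretch-responsive genes, which failing hearts switch on, showed 0 rises and 1 fall among 23 (median -0.16), the fall being that of Csrp3, a Z disc stress sensor, at -0.34 ± 0.11. The falls numbered 0 without IGF1 arrays 1, 2 or 3 or vehicle arrays 1, 2 or 4, with the 24 h arrays alone, with dim probes kept in or with normexp background correction, 2 with trend and robust settings, with probes above background on all 8 arrays or with quantile normalization and 5 without IGF1 array 4. The threshold was missed by Gnas with the 24 h arrays alone, with the mean of probes or with quantile normalization. Significance ended for Mef2d with the 24 h arrays alone. Irx4 missed the threshold without IGF1 arrays 1 or 2 or vehicle arrays 1, 2 or 3 or with dim probes kept in. Csrp3 dropped out of the calls without IGF1 arrays 1, 2 or 3 or vehicle arrays 1, 2 or 4, with the 24 h arrays alone, with dim probes kept in, with normexp background correction or with slide as a block.

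**Figure D4:**
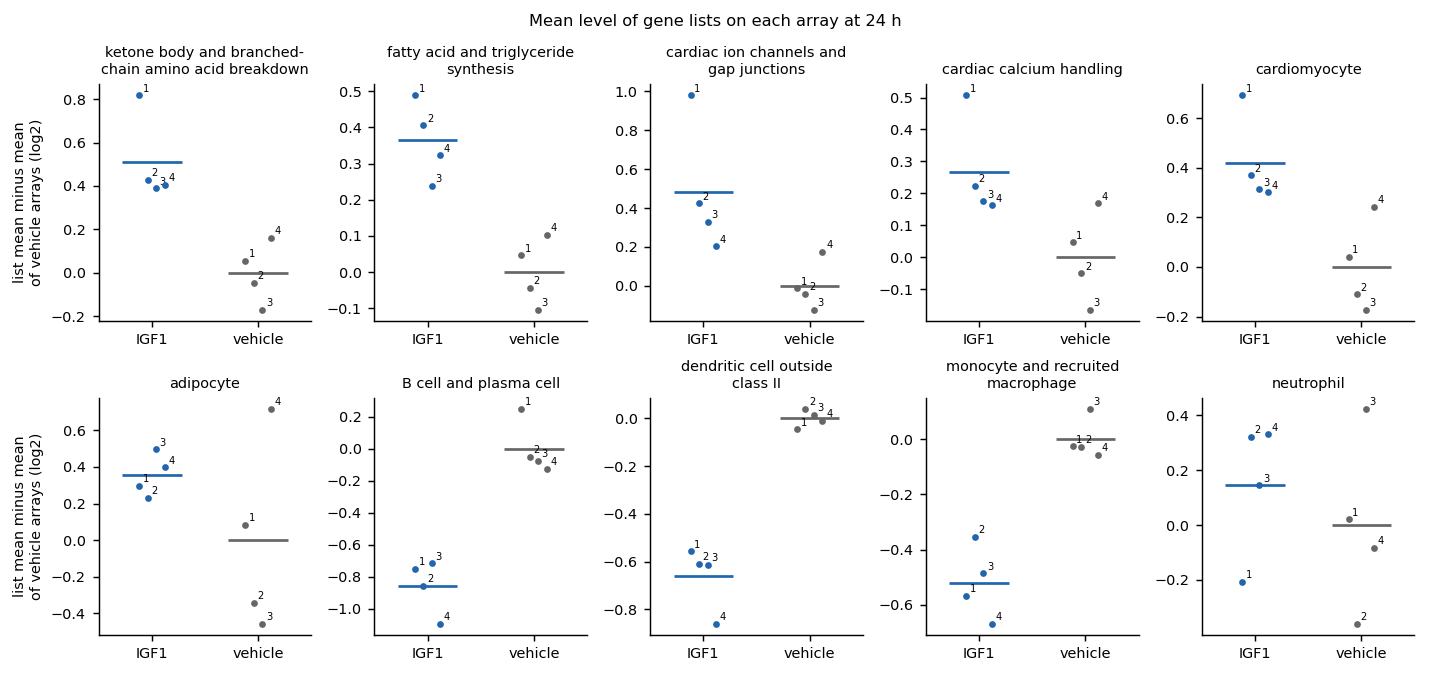
Mean level of the measured genes of 10 lists on each array, minus the mean of the 4 vehicle arrays of that list (y axis, log2), with IGF1 left and vehicle right in each panel. Points are arrays numbered by replicate and bars are group means. In the ketone body, fatty acid, ion channel, calcium and cardiomyocyte panels IGF1 array 1 is the highest point. The groups overlap in the calcium, adipocyte and neutrophil panels and in none of the others.

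In the hormone's own axis 18 genes for IGF ligands, receptors and binding proteins were measured. Of these 0 rose and 1 fell (5.56% called, against 16.0% of all genes), with a median of 0.00072. The call was that of the tissue's own Igf1, which read 1.01, 0.87, 0.93 and 0.47 with IGF1, against 1.61, 1.56, 0.97 and 1.27 with vehicle (log2 difference -0.53 ± 0.16, adjusted p = 0.0296) and overlapped between the groups. The ligand Igf2 differed by 0.31, adjusted p = 0.188, the receptor Igf1r by -0.29, adjusted p = 0.246 and the insulin receptor Insr by 0.0085, adjusted p = 0.968. Among binding proteins, Igfbp3 differed by -0.017, adjusted p = 0.968, Igfbp4 by 0.15, adjusted p = 0.53, Igfbp5 by 0.46, adjusted p = 0.28, Igfbp6 by 0.087, adjusted p = 0.699 and Igfbp7, the brightest of the list, by -0.084, adjusted p = 0.585. The clearance receptor Igf2r stood at -0.038, adjusted p = 0.761, the mRNA-binding protein Igf2bp2 at -0.23, adjusted p = 0.506, the protease Pappa at -0.25, adjusted p = 0.526 and its inhibitors Stc1 and Stc2 at -0.0071, adjusted p = 0.979 and 0.37, adjusted p = 0.479. Igfals, the acid-labile subunit, was highest at 0.71, adjusted p = 0.239 but above background on 2 of 4 IGF1 and 1 of 4 vehicle arrays. Igfbp2, Pappa2 and Insrr were above background on at most 1 of the 8 arrays. A call was not kept for Igf1 without IGF1 array 4 or vehicle arrays 1 or 2, with the 24 h arrays alone or with dim probes kept in.

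Downstream of the receptor, 2 of 35 insulin and IGF1 signalling genes rose and 2 fell (median 0.071), so that 11.4% were called, against 16.0% of all genes. Over the alternatives rises ranged from 1 (without IGF1 array 1 or vehicle arrays 1, 2 or 3, with the 24 h arrays alone or with dim probes kept in) to 4 (with trend and robust settings or with slide as a block) and falls from 1 (without IGF1 arrays 1, 2 or 3 or vehicle arrays 1, 2, 3 or 4, with the 24 h arrays alone, with dim probes kept in or with normexp background correction) to 3 (without IGF1 array 4, with the mean of probes or with slide as a block). Tsc2, the brake on mTORC1 that AKT inactivates, read 4.77, 4.41, 4.51 and 4.51 with IGF1, against 4.14, 4.21, 4.12 and 4.17 with vehicle (log2 difference 0.39 ± 0.091, adjusted p = 0.00826), and Inpp5d, the leukocyte phosphatase SHIP1 that opposes PI3K, read 1.82, 2.19, 2.10 and 1.97 with IGF1, against 2.61, 2.40, 2.70 and 2.70 with vehicle (log2 difference -0.58 ± 0.12, adjusted p = 0.00398). Both pairs of groups were apart. The adaptor Grb14 was the highest of the list but did not pass (0.57, adjusted p = 0.0605). The receptor's ERK branch is read out by immediate early and feedback genes, of which 3 rose and 4 fell among 36 (median -0.15, 19.4% called), with 0 kept in all leave-one-out fits. Rises there numbered 1 without IGF1 arrays 1, 2 or 4 or vehicle arrays 2 or 4, with the 24 h arrays alone or with dim probes kept in, and falls 0 without IGF1 array 1 and 2 without IGF1 array 2 or vehicle arrays 1, 2 or 4 or with dim probes kept in. Dusp6, an ERK phosphatase, differed by -0.38 ± 0.10, Egr3 differed by -0.63 ± 0.19 and the phosphatase Dusp1 by 0.63 ± 0.19, the last with overlapping groups. Ribosome biogenesis genes, which growth signals raise, showed 0 rises and 1 fall among 34 (median -0.13), the fall being that of Nhp2 (-0.34 ± 0.092), and falls ranged from 0 (without IGF1 array 1 or vehicle arrays 1 or 2 or with the 24 h arrays alone) to 6 (without IGF1 array 4). The test was no longer passed by Dusp6 without IGF1 array 1. Egr3 lost significance without IGF1 arrays 1, 2 or 3 or vehicle arrays 1 or 4, with the 24 h arrays alone, with dim probes kept in or with normexp background correction. The call was lost for Dusp1 without IGF1 arrays 2 or 4 or vehicle arrays 2 or 4, with the 24 h arrays alone or with dim probes kept in. For Nhp2 the call did not hold without IGF1 array 1 or vehicle arrays 1 or 2 or with the 24 h arrays alone.

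B cell and plasma cell genes showed the lowest median of the 63 lists, -1.06, with 10 of 21 measured genes lower, 0 higher and all 10 falls kept in the leave-one-out fits. With normexp background correction the median was -0.38 and no longer the lowest, the monocyte list lying at -0.58, and with probes above background on all 8 arrays it was -0.68. Cd79b, part of the antigen receptor, read -0.94, -1.18, -0.86 and -1.76 with IGF1, against 0.57, -0.11, -0.10 and -0.37 with vehicle (log2 difference -1.18 ± 0.24, adjusted p = 0.00349). The transcription factor Spib differed by -1.52 ± 0.27 and the IgM Fc receptor Fcmr by -1.45 ± 0.35. Some genes stood above background on 0 of 4 IGF1 arrays, against 4 of 4 with vehicle: Pou2f2, the octamer-binding factor OCT2, at least 1.92-fold lower (adjusted p = 0.00248), the BAFF receptor Tnfrsf13c, at least 1.88-fold lower (adjusted p = 0.0162), and Cxcr5, the receptor that leads B cells into follicles, at least 1.79-fold lower (adjusted p = 0.00915). Cd22 did not pass the test (0.28, adjusted p = 0.326), and its 2 probes disagreed, at 0.28 and -1.37. The number that fell was 6 with probes above background on all 8 arrays, a setting that leaves out dim genes. The mean level of the B cell markers was -3.01 to -2.64 with IGF1, against -2.05 to -1.67 with vehicle. The threshold was missed by Pou2f2 with normexp background correction.

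Some T and natural killer cell genes were lower as well. Of 20 T cell genes 9 fell and 1 rose (median -0.87, or -0.35 with normexp background correction and -0.55 with probes above background on all 8 arrays, 7 falls kept in all leave-one-out fits). The kinases Lck and Zap70, which start T cell receptor signals, differed by -0.93 ± 0.16 and -1.14 ± 0.24, the adaptor Skap1 by -1.42 ± 0.28 and Cd5 by -0.82 ± 0.20. The T cell factor Tcf7 differed by -1.14 ± 0.22 and its relative Lef1, counted with the Wnt genes, by -1.16 ± 0.21. The riser was the costimulator Cd28 (0.53 ± 0.15), while Cd3e and Cd4, named after their values were seen, differed by -0.16, adjusted p = 0.398 and 0.095, adjusted p = 0.63, with overlapping groups. The number that fell was 4 with probes above background on all 8 arrays and 5 with normexp background correction. Of 20 natural killer and cytotoxic genes 4 fell and 0 rose (median -0.50, or -0.19 with normexp and -0.31 without IGF1 array 4), among them the activating receptor Klrk1 (-1.06 ± 0.24). Significance ended for Cd5 and Tcf7 with normexp background correction. Cd28 missed the threshold without IGF1 array 1 or vehicle arrays 2 or 3. Klrk1 dropped out of the calls with the 24 h arrays alone or with normexp background correction.

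Dendritic cells were represented by 21 genes outside class II, of which 11 fell and 0 rose (median -0.62, or -0.37 with normexp, 8 kept in all leave-one-out fits). Flt3, the receptor that drives their development, read -2.95, -3.31, -3.10 and -3.42 with IGF1, against -2.10, -1.83, -2.0 and -1.83 with vehicle (log2 difference -1.25 ± 0.23, adjusted p = 0.0019), with a wide gap between the groups. The lineage factor Irf8 differed by -0.68 ± 0.15 and Sirpa, the receptor for CD47, by -0.71 ± 0.14. Irf4 was above background on 0 of 4 IGF1 and 4 of 4 vehicle arrays and at least 1.83-fold lower (adjusted p = 0.00335). Siglech, a plasmacytoid marker, was the highest member at 0.20, adjusted p = 0.666. Klrd1, the lowest at -1.79, is also counted in the natural killer list, where it is the lowest too. Of 11 eosinophil, basophil and mast cell genes 2 fell and 1 rose (median -0.54, or -0.28 with normexp and -0.33 without vehicle array 2), with Kit, the stem cell factor receptor, at -0.69 ± 0.15. A call was not kept for Irf4 with normexp background correction.

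Monocyte and recruited macrophage genes followed the same direction: 10 of 24 fell and 1 rose (median -0.58, 8 falls kept in all leave-one-out fits). Ccr2, the receptor that calls monocytes out of the marrow, read 1.07, 1.17, 1.13 and 1.02 with IGF1, against 2.01, 2.10, 2.26 and 2.29 with vehicle (log2 difference -1.07 ± 0.15, adjusted p = 0.000485), tight within each group and far apart between them. The receptor Trem2 differed by -1.12 ± 0.20, Ms4a7 by -1.09 ± 0.18, the CSF1 receptor Csf1r by -0.59 ± 0.095 and fibronectin (Fn1) by -0.79 ± 0.15. Chil3, also a neutrophil gene, read 5.59, 6.90, 5.75 and 6.5 with IGF1, against 6.28, 4.78, 6.34 and 5.36 with vehicle (0.49, adjusted p = 0.686), with overlap. Of 24 resident macrophage genes 5 fell and 2 rose (median -0.064), and 0 rises were kept in all leave-one-out fits. The falls numbered 3 without IGF1 array 4 or vehicle array 2, with the 24 h arrays alone or with dim probes kept in, and the rises 0 without IGF1 array 2 or vehicle array 2 and 1 without IGF1 array 1 or vehicle array 3, with the 24 h arrays alone, with normexp background correction or with probes above background on all 8 arrays. Stab1, a scavenger receptor, and the factor Maf were among the falls kept in all leave-one-out fits, at -0.56 ± 0.11 and -0.64 ± 0.16. Timd4, a marker of self-renewing cardiac macrophages, was above background on 1 of 4 IGF1 and 0 of 4 vehicle arrays.

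Of 23 neutrophil markers 2 rose and 0 fell (median 0.011), so that 8.70% were called, against 16.0% of all genes. The groups did not overlap for 2 markers that were higher and 4 that were lower, against 10.1% and 8.31% of all genes. With the 24 h arrays alone 1 marker was called lower, and without vehicle array 2 only 1 marker rose. Both risers, Lrg1 (6.41, 6.78, 6.18 and 5.62 with IGF1, against 4.65, 4.59, 5.12 and 5.31 with vehicle; log2 difference 1.33 ± 0.20, adjusted p = 0.00058) and lipocalin 2 (Lcn2, 1.49 ± 0.40), are also acute phase genes made by other cells. Retnlg, restricted to neutrophils and their precursors, read 1.11, 3.68, 2.0 and 3.23 with IGF1, against 1.26, -0.074, 1.83 and 0.87 with vehicle (1.53, adjusted p = 0.229) and Clec4e, a pathogen receptor of myeloid cells, 0.82, 0.66, 1.02 and 0.52 with IGF1, against 1.26, 1.66, 2.03 and 1.56 with vehicle (-0.87, adjusted p = 0.45). The first overlapped between groups and the second did not. Of 20 acute phase and protease inhibitor genes 7 rose and 0 fell (median 0.53). Serpina3m read -0.67, 0.79, -0.44 and -0.76 with IGF1, against -2.12, -2.15, -1.82 and -2.18 with vehicle (log2 difference 1.80 ± 0.28, adjusted p = 0.00092), and its IGF1 array 2 was highest. Higher genes numbered 3 without vehicle array 2 and 4 without IGF1 array 1. Platelet and megakaryocyte genes gave no limma call over 17 genes (3 with an unadjusted p below 0.05), with Pf4 (platelet factor 4) at -0.41, adjusted p = 0.138, and erythroid genes gave 2 rises and 0 falls among 14, the rises ranging from 0 (without IGF1 array 1) to 2. The test was no longer passed by Lcn2 without vehicle array 2.

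Some receptors and signals that attract and activate leukocytes fell. Of 35 chemokines and receptors 10 fell and 0 rose (median -0.42, 6 kept in all leave-one-out fits). The kept falls of receptors included, besides Ccr2 and Cxcr6, those of Cx3cr1 (-1.29 ± 0.27) and Cxcr4 (-1.19 ± 0.18), whose second probe gave 0.19. The ligand Cxcl10, induced by interferon gamma, read -1.12, -1.36, -0.69 and -0.60 with IGF1, against 0.47, 0.36, 0.29 and -0.002 with vehicle (log2 difference -1.23 ± 0.29, adjusted p = 0.00915) and was the only call among 32 interferon-stimulated genes (median -0.19), although calls there numbered 2 with array weights or with trend and robust settings. Oas1a, a viral RNA sensor, was at -0.57, adjusted p = 0.0605. Of 28 cytokines 3 fell and 2 rose (median -0.27, 17.9% called, against 16.0% of all genes). Cytokine falls numbered 1 without IGF1 array 1 or vehicle arrays 1, 2 or 3 or with dim probes kept in and 5 with the percentile taken over spots, with trend and robust settings, with the median of kept genes as scale, with probes above background on all 8 arrays or with slide as a block, and rises 0 with the 24 h arrays alone and 1 without IGF1 arrays 1 or 2 or vehicle arrays 1, 2 or 3, with array weights, with the mean of probes, with dim probes kept in, with normexp background correction or with quantile normalization. Tnfsf9, the ligand of 4-1BB, differed by -0.56 ± 0.12 and Ctf1, cardiotrophin 1, a survival factor of heart muscle, differed by 1.04 ± 0.25 with overlapping groups. Il1b, interleukin 1 beta, read 1.01, 0.59, 1.49 and 0.98 with IGF1, against 1.91, 2.26, 2.33 and 2.49 with vehicle, without overlap, and just missed the threshold (-1.23, adjusted p = 0.05). Cx3cr1 and Ctf1 lost significance with the 24 h arrays alone. The call was lost for Cxcr4 with the mean of probes.

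In the complement system anaphylatoxin receptors fell and a protector rose. Of 25 genes 5 fell and 3 rose (median 0.012), the rises numbering 1 without IGF1 array 1 or vehicle array 2 or with the 24 h arrays alone and 5 with slide as a block. The anaphylatoxin receptors C3ar1, C5ar1 and C5ar2 differed by -0.92 ± 0.17, -0.58 ± 0.13 and -0.53 ± 0.13, and the receptor chain Itgax (CD11c) by -1.12 ± 0.29. Myeloid cells express these genes. The mean level over the monocyte and macrophage markers was 2.71 to 3.03 with IGF1, against 3.33 to 3.49 with vehicle, and its part in the chemokine and complement results was not tested. Cd59a, which blocks the membrane attack complex, read 2.92, 2.60, 2.25 and 2.19 with IGF1, against 1.84, 1.71, 1.60 and 1.85 with vehicle (log2 difference 0.74 ± 0.15, adjusted p = 0.00403), with no overlap.

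Genes of cell death moved in both directions. Of 17 Bcl2 family genes 3 fell and 1 rose (median -0.093), and falls numbered 5 without vehicle array 4 or with slide as a block. The rise was not kept in all leave-one-out fits. Pmaip1 (NOXA), a BH3-only killer, read -1.55, -1.14, -1.59 and -1.75 with IGF1, against -0.36, -0.34, -0.32 and -0.39 with vehicle (log2 difference -1.16 ± 0.16, adjusted p = 0.000382), with vehicle arrays nearly identical. The BH3-only protein Bid differed by -0.62 ± 0.13 and Bcl2a1d, a survival gene of blood cells, by -0.74 ± 0.15. Of 30 genes of caspases, necroptosis and pyroptosis 7 fell and 0 rose (median -0.27). The 2 falls kept in all leave-one-out fits were inflammasome sensors, Aim2 for DNA (-0.87 ± 0.20) and Nlrc4 for bacterial proteins (-0.91 ± 0.20). The number that fell was 2 without IGF1 array 1, 3 without vehicle array 1, 4 with the 24 h arrays alone or with dim probes kept in and 11 with the median of kept genes as scale or with slide as a block. Of 27 p53 targets 4 rose and 3 fell (median -0.068; falls numbered 1 without IGF1 array 1 or vehicle array 1 or with the 24 h arrays alone), among them the membrane protein Perp (0.64 ± 0.14), the death receptor Fas (0.52 ± 0.11) and cyclin G1 (Ccng1, 0.59 ± 0.14). Which cells carried these transcripts was not tested. For Nlrc4 the call did not hold with the 24 h arrays alone.

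The heat shock, endoplasmic reticulum stress, ATF4, hypoxia and clock lists were called no more often than the 16.0% of all genes. Heat shock chaperones showed 2 rises and 2 falls among 25 (median -0.022), the endoplasmic reticulum stress list 1 and 1 among 28 (median -0.15) and the ATF4 list 1 and 1 among 29 (median -0.066). Over the alternatives rises ranged from 0 (without IGF1 arrays 1 or 4 or vehicle arrays 1, 2 or 3 or with dim probes kept in) to 2 for chaperones, and falls from 0 (without IGF1 arrays 1 or 2 or vehicle array 2, with the 24 h arrays alone or with dim probes kept in) to 3 (with the mean of probes). In the endoplasmic reticulum list rises ranged from 0 (without IGF1 arrays 1 or 4 or vehicle arrays 2 or 3, with the 24 h arrays alone, with array weights or with dim probes kept in) to 1 and falls from 0 (without IGF1 array 1 or vehicle array 3 or with array weights) to 4 (without IGF1 array 3). In the ATF4 list rises ranged from 0 (with the 24 h arrays alone) to 2 (without IGF1 array 3, with trend and robust settings or with normexp background correction) and falls from 0 (without IGF1 arrays 1 or 2 or vehicle arrays 1 or 2, with array weights or with dim probes kept in) to 3 (without IGF1 array 4). The ATF4 call kept in all leave-one-out fits was the lipoprotein receptor Vldlr (0.66 ± 0.15). Fgf21, a stress hormone, read -3.81, -4.26, -3.21 and -1.79 with IGF1, against -4.40, -4.45, -5.06 and -4.38 with vehicle (1.30, adjusted p = 0.222), with IGF1 array 4 far above the rest. Of 25 hypoxia-induced genes 3 rose and 0 fell (median 0.053): Bnip3, the oxygen-sensing hydroxylase Egln1 (0.52 ± 0.13) and HIF-2alpha itself (Epas1), which read 6.33, 6.41, 6.11 and 6.12 with IGF1, against 5.90, 5.51, 5.80 and 5.69 with vehicle (log2 difference 0.52 ± 0.092, adjusted p = 0.00187). Hypoxia gene rises numbered 1 with the 24 h arrays alone. Among 20 clock genes 1 rose and 0 fell (median 0.20). The threshold was missed by Vldlr and Egln1 with the 24 h arrays alone.

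Of 22 resting fibroblast genes 7 rose and 0 fell (median 0.33, 2 kept in all leave-one-out fits). Of 20 activated fibroblast genes 3 fell and 0 rose (median -0.31), so that 15% were called, against 16.0% of all genes. Scara5, a ferritin receptor of resting fibroblasts, read -0.69, -1.73, -2.27 and -3.16 with IGF1, against -3.92, -4.63, -4.77 and -3.28 with vehicle (log2 difference 2.19 ± 0.41, adjusted p = 0.00248), above background on 4 of 4 IGF1 and 1 of 4 vehicle arrays. Smoc2, a matrix protein, differed by 0.54 ± 0.13, and the kept activated-state falls were Fn1 and the factor Runx1 (-0.76 ± 0.15). The resting number was 1 with the 24 h arrays alone, 2 without IGF1 array 1 or vehicle arrays 2 or 3 and 4 without IGF1 array 2, and the activated number 5 with slide as a block and 7 without vehicle array 3. Collagens gave 0 rises and 1 fall among 32 (median -0.20), the fall being that of the collagen chaperone Serpinh1 (-0.56 ± 0.17). Collagen falls numbered 0 without IGF1 arrays 1 or 2 or vehicle array 2, with the 24 h arrays alone or with dim probes kept in, 2 without vehicle array 1, 3 with array weights, with the mean of probes or with slide as a block and 7 without vehicle array 3. Osteopontin (Spp1) read 5.98, 5.60, 5.93 and 5.13 with IGF1, against 6.99, 6.71, 6.88 and 6.61 with vehicle, without overlap, but did not pass (-1.14, adjusted p = 0.107). Significance ended for Smoc2 with the 24 h arrays alone. Serpinh1 missed the threshold without IGF1 arrays 1 or 2 or vehicle array 2, with the 24 h arrays alone or with dim probes kept in.

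Of 26 capillary and arterial endothelial genes 4 rose and 1 fell (median 0.17), so that 19.2% were called, against 16.0% of all genes. Endothelial rises numbered 1 with the 24 h arrays alone, 2 without IGF1 array 2 or vehicle arrays 2 or 4 and 7 with slide as a block. They were led by Rgcc, a complement-responsive cell cycle gene, which read 4.05, 4.37, 3.77 and 4.23 with IGF1, against 3.43, 3.16, 3.33 and 3.14 with vehicle (log2 difference 0.84 ± 0.11, adjusted p = 0.000299). Fabp4, the fatty acid carrier of capillaries and fat cells, differed by 0.75 ± 0.16 with overlapping groups. Of 36 vascular growth factor genes 5 rose and 2 fell (median 0.14, 19.4% called), the rises numbering 3 without IGF1 array 1 or with the 24 h arrays alone and the falls 1 without IGF1 array 1 or vehicle arrays 1 or 2 or with probes above background on all 8 arrays. Vegfb differed by 0.61 ± 0.14, Fgf1 by 0.59 ± 0.12 and Pdgfd by 0.62 ± 0.14, while hepatocyte growth factor (Hgf) read -4.34, -4.24, -4.25 and -4.94 with IGF1, against -3.49, -2.94, -3.35 and -3.35 with vehicle (log2 difference -1.16 ± 0.20, adjusted p = 0.00137) and was above background on 1 of 4 IGF1 arrays. Of 19 smooth muscle and pericyte genes 4 rose and 1 fell. Rises in that list numbered 0 with the 24 h arrays alone, 1 without IGF1 array 1 or vehicle array 3 and 2 without IGF1 array 2 or vehicle array 2, with array weights or with dim probes kept in, and falls 2 without vehicle array 3. The pericyte gene Rgs5 differed by 0.61 ± 0.13 and calponin (Cnn1), of contractile smooth muscle, by -1.09 ± 0.25. Fabp4 and Rgs5 dropped out of the calls with the 24 h arrays alone.

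Among 32 TGF-beta and BMP genes 2 rose and 4 fell (median -0.061), so that 18.8% were called, against 16.0% of all genes. TGF-beta rises numbered 0 with array weights, 1 without IGF1 arrays 1, 2 or 4 or vehicle arrays 1 or 2, with the 24 h arrays alone or with dim probes kept in and 4 without IGF1 array 3, and falls 1 without IGF1 array 1 or vehicle arrays 2 or 4, with the 24 h arrays alone or with dim probes kept in and 2 without IGF1 array 3 or with normexp background correction. Named here are the ligand Bmp2 at -0.54 ± 0.14 and the inhibitory Smad6 at 0.79 ± 0.21. Among 31 Wnt genes 2 rose and 2 fell (median -0.0077, 12.9% called), and the ligand Wnt9a differed by 0.52 ± 0.12. Wnt gene rises ranged from 0 (with the 24 h arrays alone) to 4 (without IGF1 arrays 3 or 4 or with slide as a block) and falls from 1 (with normexp background correction or with probes above background on all 8 arrays) to 3 (without IGF1 array 4 or vehicle array 3 or with array weights). Of 29 metalloproteinases and inhibitors 1 rose and 2 fell (10.3% called). The heart's inhibitor Timp4 read 2.42, 3.45, 2.08 and 3.27 with IGF1, against 2.04, -0.16, 1.06 and 0.68 with vehicle (log2 difference 1.90 ± 0.53, adjusted p = 0.0197). Its groups did not overlap, but vehicle array 1 lay close to the lowest IGF1 array. Falls in that list ranged from 1 (without IGF1 arrays 1 or 2 or vehicle array 2, with the 24 h arrays alone or with normexp background correction) to 2. Among 25 coagulation genes 2 rose and 0 fell (median -0.10), so that 8.0% were called, against 16.0% of all genes. The 2 were tissue factor (F3, 0.44 ± 0.13) and its inhibitor Tfpi (0.37 ± 0.095), and 0 calls were kept in all leave-one-out fits. A call was not kept for Smad6 without IGF1 array 2 or with array weights. The test was no longer passed by Wnt9a with the 24 h arrays alone. Timp4 lost significance without IGF1 array 2 or vehicle array 2, with the 24 h arrays alone or with array weights. The call was lost for F3 without IGF1 array 1 or vehicle arrays 1, 2 or 3 or with the 24 h arrays alone. For Tfpi the call did not hold without vehicle array 2 or with the 24 h arrays alone.

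Of 892 long noncoding RNAs 76 rose and 25 fell (11.3% called), against 1310 and 1118 of 14798 protein-coding genes (16.4% called). Their median level on the IGF1 arrays was -2.84, against 0.92 for protein-coding genes. Genes of motile cilia were dim in the heart (mean level -2.78 to -2.37 with IGF1, against -3.28 to -2.85 with vehicle), and 4 of 14 rose, among them Vwa3a and Ubxn10 given above. Cilium gene rises numbered 2 without IGF1 arrays 1 or 2 or vehicle array 3, with the 24 h arrays alone, with dim probes kept in, with normexp background correction or with probes above background on all 8 arrays. Of 11 atrial and conduction markers 2 rose and 0 fell (median 0.30), with rises ranging from 1 (without IGF1 array 1 or vehicle arrays 2 or 3 or with the 24 h arrays alone) to 3 (without IGF1 array 3, with array weights, with trend and robust settings or with probes above background on all 8 arrays). Endocardial and lymphatic endothelium gave 2 rises and 1 fall among 12 genes, mesothelium 0 and 0 by limma among 18 (0 with an unadjusted p below 0.05), and Schwann cells and neurons 0 and 1 among 17, the fall being that of the myelin gene Mbp (-0.84 ± 0.16). Iron handling gave 2 rises and 1 fall among 26, and matrix glycoproteins and proteoglycans 2 and 2 among 34. Over the alternatives rises ranged from 1 (without IGF1 arrays 1 or 2 or vehicle arrays 2 or 3) to 5 (without IGF1 array 3) in endocardial and lymphatic endothelium, from 1 (without IGF1 array 1 or vehicle array 2) to 4 (without vehicle array 4 or with slide as a block) in iron handling and from 0 (with the 24 h arrays alone) to 3 (with slide as a block) in the matrix list. Probes with no gene symbol here were called in 489 of 11057 cases (4.42%), and named probes in 2609 of 23405 (11.1%).

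The promoters of the genes whose calls were kept in all leave-one-out fits were read for 12 short motifs, on both strands, in the 300 bases from 250 before to 50 after each transcript start (RefSeq, GRCm38.p6). Promoters were given for 12551 genes tested, including 406 kept higher and 389 kept lower, and the motifs were chosen with the expression results known. GAGGAAGT, a core of the PU.1 site of myeloid and B cells, was in a promoter of 39 kept-lower genes (10.03%) and 10 kept-higher genes (2.46%), and in 465 of all (3.70%). The octamer ATGCAAAT was in 15 kept-lower (3.86%), 3 kept-higher (0.739%) and 208 of all (1.66%). GTAAACA, the core of FOXO and other forkhead sites, was in 10 kept-lower (2.57%), 25 kept-higher (6.16%) and 405 of all (3.23%). The ETS core CCGGAAGT, which shares its last letters with the PU.1 core, was in 4.11, 3.94 and 7.61%. The short form of the interferon-stimulated response element was in 4.63, 1.23 and 3.81%, and the ERR core TNAAGGTCA in 2.06, 1.23 and 1.01%. The MEF2 core TATTTATA was in 1.29, 1.72 and 1.41%, the palindromic NRF1 site in 1.03, 1.48 and 1.91%, the E2F core TTTCGCGC in 0.771, 0.985 and 0.693% and CCAAT in 43.7, 44.8 and 42.2%, in the same order. The exact PPAR direct repeat was in 0, 0 and 8 genes and the exact glucocorticoid receptor palindrome in 0, 1 and 1. A match is a run of letters and not a bound site, and the 3 groups of promoters differed little in base composition (median GC 58.0, 59.3 and 59.7%).

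The promoters of 4 genes whose falls were kept in all leave-one-out fits and that hold the PU.1 core are shown, since this motif differed most in share between the kept-lower and all promoters. They were taken by smallest p among the genes named by the rule, not all of which are described here. Genes on the chromosome that carries Csf1r were left out, so a gene there could not be shown whatever its p. Capitals mark the core, in either direction, 5′ to 3′ along the gene.
Inpp5d (SHIP1 phosphatase, chr1:87620062-87620361, + strand): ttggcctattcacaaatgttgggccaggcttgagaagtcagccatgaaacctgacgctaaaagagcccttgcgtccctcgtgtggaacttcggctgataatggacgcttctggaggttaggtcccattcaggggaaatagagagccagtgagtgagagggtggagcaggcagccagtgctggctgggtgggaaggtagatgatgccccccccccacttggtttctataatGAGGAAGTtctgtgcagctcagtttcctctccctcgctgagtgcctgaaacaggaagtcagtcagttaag
Bcl2a1d (blood cell survival gene, chr9:88731801-88732100, - strand): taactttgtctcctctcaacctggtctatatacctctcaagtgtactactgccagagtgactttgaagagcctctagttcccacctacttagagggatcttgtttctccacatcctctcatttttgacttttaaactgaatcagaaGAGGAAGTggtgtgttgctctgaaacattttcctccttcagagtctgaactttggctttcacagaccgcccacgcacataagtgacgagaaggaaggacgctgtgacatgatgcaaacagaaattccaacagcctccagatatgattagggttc
Aim2 (DNA sensor, chr1:173420354-173420653, + strand): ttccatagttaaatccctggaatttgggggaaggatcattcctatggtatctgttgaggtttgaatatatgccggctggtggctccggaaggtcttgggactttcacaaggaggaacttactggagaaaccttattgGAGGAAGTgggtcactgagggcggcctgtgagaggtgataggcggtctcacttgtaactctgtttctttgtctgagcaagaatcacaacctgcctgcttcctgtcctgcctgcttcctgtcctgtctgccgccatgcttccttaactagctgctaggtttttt
Cd5 (T cell antigen, chr19:10738925-10739224, - strand): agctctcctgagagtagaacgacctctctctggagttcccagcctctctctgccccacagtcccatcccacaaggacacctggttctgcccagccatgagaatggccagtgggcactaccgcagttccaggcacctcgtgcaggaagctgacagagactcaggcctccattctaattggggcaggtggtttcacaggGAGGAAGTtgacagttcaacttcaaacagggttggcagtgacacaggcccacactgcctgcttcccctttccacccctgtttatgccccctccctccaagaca

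The promoters of 4 genes with kept rises and the forkhead core are shown because IGF1 signalling is known to act on FOXO factors, and the first pair empties lipid droplets. They were taken in the same way. Capitals mark GTAAACA or its reverse complement TGTTTAC.
Lipe (hormone-sensitive lipase, chr7:25390063-25390362, - strand): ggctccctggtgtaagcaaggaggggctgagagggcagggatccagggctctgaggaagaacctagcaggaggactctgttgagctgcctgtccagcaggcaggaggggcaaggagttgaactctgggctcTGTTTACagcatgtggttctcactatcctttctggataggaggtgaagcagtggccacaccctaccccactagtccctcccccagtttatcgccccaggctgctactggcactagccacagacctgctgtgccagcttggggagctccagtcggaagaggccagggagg
Mgll (monoglyceride lipase, chr6:88724162-88724461, + strand): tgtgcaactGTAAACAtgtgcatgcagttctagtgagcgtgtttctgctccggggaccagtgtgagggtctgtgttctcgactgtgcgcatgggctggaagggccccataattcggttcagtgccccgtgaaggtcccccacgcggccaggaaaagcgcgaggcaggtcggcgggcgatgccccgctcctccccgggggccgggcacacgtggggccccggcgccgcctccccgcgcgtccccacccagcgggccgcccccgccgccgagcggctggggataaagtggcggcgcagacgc
Ubxn10 (ubiquitin adaptor, chr4:138725216-138725515, - strand): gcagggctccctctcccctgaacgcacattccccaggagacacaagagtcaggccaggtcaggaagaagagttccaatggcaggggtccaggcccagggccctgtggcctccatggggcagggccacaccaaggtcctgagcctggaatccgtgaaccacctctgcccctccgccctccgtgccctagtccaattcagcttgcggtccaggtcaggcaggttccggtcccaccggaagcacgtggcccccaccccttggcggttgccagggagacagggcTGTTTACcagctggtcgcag
Prlr (prolactin receptor, chr15:10223656-10223955, + strand): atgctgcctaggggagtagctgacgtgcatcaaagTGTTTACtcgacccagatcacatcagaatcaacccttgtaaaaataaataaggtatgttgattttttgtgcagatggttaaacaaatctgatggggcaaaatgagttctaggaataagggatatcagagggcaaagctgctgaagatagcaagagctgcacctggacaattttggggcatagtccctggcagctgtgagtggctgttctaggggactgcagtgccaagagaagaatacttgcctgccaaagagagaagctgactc

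The difference between IGF1 and vehicle changed between 24 h and 48 h of reperfusion for 11 genes (0.0693% of those tested), by the test of the interaction term. Of these, 9 were higher with IGF1 at 24 h and 2 were lower. Tacc2, a centrosome and microtubule protein, read 5.43, 5.95, 5.30 and 5.77 with IGF1, against 4.17, 3.55, 4.60 and 4.28 with vehicle at 24 h (log2 difference 1.47 ± 0.17, adjusted p = 0.000299), against a 48 h difference of -0.29 (change 1.76, adjusted p = 0.006). Its 24 h groups did not overlap. The phosphatase Ptp4a1 differed by 0.44 ± 0.063 at 24 h, the condensin subunit Ncapg2 by -0.99 ± 0.14, the chaperone partner Tsacc by 0.40 ± 0.089 and the predicted gene Gm17745 by 0.86 ± 0.16. Spns3, a transporter of the sphingolipid family, was above background on 0 of 4 IGF1 and 2 of 4 vehicle arrays, so only a bound can be given, and it was at least 1.33-fold lower at 24 h (adjusted p = 0.000299). S100a1 and Camk2b, given above, were also among the 11. At 48 h none of the 11 differences was called, and the largest was that of Gm17745, at -0.37. The count ranged from 2 to 275 when 1 array of either time was left out (275 without vehicle array 3 of 48 h) and was 318 with array weights and 1 with normexp background correction. The threshold was missed by Tsacc with the 24 h arrays alone. Significance ended for Gm17745 with normexp background correction.

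**Figure D5:**
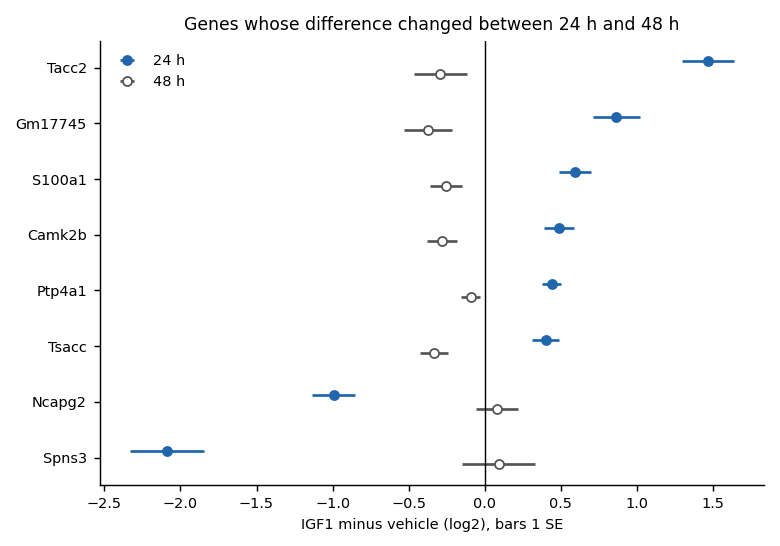
Log2 difference between IGF1 and vehicle at 24 h (filled circles) and at 48 h (open circles) for 8 of the 11 genes whose difference changed between the times (x axis, log2), with bars of 1 SE of the fit. The 24 h value of Spns3 is a fitted value of a probe above background on 0 of 4 IGF1 arrays, so its size is not measured. At 24 h 6 genes are above 0 and 2 below 0, and at 48 h the values lie close to 0 or on the other side of it.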

How the data were processed

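RNA from the area at risk of mouse hearts was hybridised to 24 one-colour Agilent 8x60K expression arrays, 4 arrays in each of 6 groups (IGF1 and vehicle at 24, 48 and 168 h). Per the file headers, Feature Extraction 12.0.3.2 made the authors' deposited scanner files, which give background-subtracted Cy3 intensity for each spot. The authors' deposited value table holds log2 values centred per probe. Its 33934 matched probes equal log2 intensity minus the 75th percentile of each array, once a constant for each probe is taken off. The remaining offset was at most 0.00253 for each array. The scale and direction of differences between arrays are therefore known, but the table does not give the level of a probe.

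Processed intensity was averaged over spots of a probe, scaled to the 75th percentile of each array and taken to log2. Flagged and control spots were left out. Probes well above background on at least 4 of 24 arrays were kept (34462 of 56605). Accessions were matched to RefSeq symbols (GRCm38.p6) for 33767 probes (59.7%), none with several, and the brightest kept probe stood for each of 15875 genes. Of these, 24 genes lacked a value on an array. Group means were fitted over all 24 arrays, which share 1 estimate of spread, with limma 3.58.1 in R 4.3.3 (18 residual degrees of freedom), and p-values were adjusted by Benjamini-Hochberg at a threshold of 0.05. The difference between 24 and 48 h was tested as the interaction in that fit. On simulated data with the scale of these arrays over 15851 genes, 87 of 100 genes changed by 1 log2 unit and 93 of 100 changed by 2 were recovered, with 10 false calls. The simulated noise was independent between genes and arrays and held no slide effect. These figures therefore check the fit and do not measure how reliable the calls on the real arrays are.

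Genes were named by a rule: large, non-overlapping calls kept in all leave-one-out fits, genes above background in 1 group only, and for each of 63 lists (1421 of 1543 genes measured) the members with the smallest p, the highest and the lowest. The rule names 281 genes, of which part are described; some genes stay in the counts and are not reported here by name. The comparison, the lists and the motifs were chosen with earlier results of these data known. Some genes stand in several lists, so counts of different lists are not independent. The numbers of the labels, which equal the slide at 24 h, were not used to pair the arrays in the main fit. Deviations of same-numbered arrays from their group means correlated at 0.13, -0.05, 0.11 and 0.081. For arrays of unlike number the correlations were -0.29 to 0.20. So few values cannot settle whether arrays of a slide share variation, and with the slide as a block 3436 genes were called. The alternatives tried were normexp correction (offset 50), quantile or median scaling, other probe filters, the mean of probes, the authors' table, the 24 h arrays alone, blocks, array weights, trend and robust settings, leaving out each array and, chosen after seeing the data, the percentile over spots. The number of arrays limits the precision. The 168 h arrays entered the fit but no comparison.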

Additional observations from a re-analysis of the deposited data

Results flagged for a closer look

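Among 4 arrays of a group, 1 array was set apart when its gap to the nearest other array, divided by the range of the group, passed Dixon's critical value for 4 samples. Chance passes this in about 1 in 20 groups, and 46 of 546 groups of described genes and list means did (8.42%). Values in parentheses are that ratio. No cause was tested.

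IGF1 array 1 was the highest for Aldh6a1 (0.854), Cat (0.842), Cmya5 (0.857) and Grb14 (0.837). IGF1 array 1 was again the highest for Ivd (0.928), Ldhb (0.838), Mmut (0.877), Myoz2 (0.852) and Opa1 (0.899). IGF1 array 1 was again the highest for Pfkm (0.84), Ppargc1b (0.878) and Pygm (0.957). IGF1 array 1 was the lowest for Bcat1 (0.859) and Igf1r (0.928). IGF1 array 2 was the highest for Sqle (0.859). IGF1 array 2 was the lowest for Stc1 (0.936). IGF1 array 3 was the highest for Tnfsf9 (0.86). IGF1 array 3 was the lowest for Pdk4 (0.837). IGF1 array 4 was the highest for Bmp2 (0.961) and Oas1a (0.932). IGF1 array 4 was the lowest for Aldh1a3 (0.839), Cxcr6 (0.99), Hgf (0.857) and Itgax (0.832). IGF1 array 4 was again the lowest for Maf (0.966).

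Vehicle array 1 was the highest for Igfbp7 (0.856) and Lef1 (0.91). Vehicle array 1 was the lowest for Tnfsf9 (0.956). Vehicle array 2 was the highest for Klrd1 (0.93). Vehicle array 2 was the lowest for Vwa3a (0.951). Vehicle array 3 was the highest for Serpina3m (0.837). Vehicle array 3 was the lowest for Fgf21 (0.902) and Ncapg2 (0.841). Vehicle array 4 was the highest for Adcy6 (0.912), Csf1r (0.955) and Ctf1 (0.839). Vehicle array 4 was the lowest for Cnn1 (0.866).

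IGF1 array 1 was the highest for the mean level of the ketone body and branched-chain amino acid breakdown list (0.912), creatine, carnitine and nucleotide energy shuttles list (0.847) and mitochondrial dynamics and mitophagy list (0.9). IGF1 array 2 was the highest for the mean level of the collagens and collagen processing list (0.922). IGF1 array 3 was the lowest for the mean level of the IGF ligands, receptors and binding proteins list (0.859). Vehicle array 1 was the highest for the mean level of the caspases, necroptosis and pyroptosis list (0.901), metalloproteinases and their inhibitors list (0.874) and T cell list (0.846). Vehicle array 2 was the lowest for the mean level of the iron, heme and metal handling list (0.888).

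The difference between IGF1 and vehicle was larger at 24 h than at 48 h by the interaction test, in log2 units, for Camk2b (0.767), Gm17745 (1.236), Ptp4a1 (0.533), S100a1 (0.845), Tacc2 (1.758) and Tsacc (0.735). It was lower at 24 h for Ncapg2 (-1.075) and Spns3 (-2.181). The value of Spns3 is that of the fit only, since its probe was above background on 0 of 4 IGF1 arrays at 24 h.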

How the results depend on the processing

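Between 947 and 3436 genes were called under the alternatives. The count was 947 with the 24 h arrays alone, which leaves fewer residual degrees of freedom, and 1755 of 23462 genes with no filter on dim probes. Leaving out 1 array gave 1203 to 2736 calls. The genes whose difference changed between 24 h and 48 h numbered 16 with the deposited value table, 318 with array weights, 97 with trend and robust settings, 36 with probes above background on all 8 arrays, 17 with slide as a block, 7 with the median of kept genes, 5 with quantile normalization, 3 with no filter and 1 with normexp background correction. They numbered 2 to 275 when 1 array was left out. No cause was tested. With the replicate block 2923 genes were called at 24 h, 1609 of them higher, and 31 changed between the times, although the numbers were not shown to pair the arrays. Of 210 genes described, 171 were called. Of these, 47 lost their call with the 24 h arrays alone, 16 without vehicle array 2, 14 with normexp background correction, 13 without IGF1 array 1 and 11 with no filter on dim probes. The sign of Cd22 turned with the mean of probes, to -0.55. The higher share of calls, 54.7%, was 45.9% with the 24 h arrays alone. Dim probes limit the lymphocyte and cilium results, many of whose genes lie near background.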
